A study of Homo sapiens with 7 samples.

Results

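G11 and G12 are 2 of the 7 libraries of a long-read RNA series on knockdown of RBFOX2 isoforms. Their labels identify them, G11 by the RBFOX2 id 178136 and G12 by the id 178135, and the pair was proposed with RBFOX2 shares of these libraries known. All 7 libraries came from HUES66, a line of human embryonic stem cells, with piggyBac in the description, after 1 µg/ml doxycycline at 24 h. The 6 G libraries are labelled RBFOX2 isoform knockdown, in which the RNA-cutting nuclease Cas13d is guided to chosen transcripts, and the remaining library is labelled WT control and received doxycycline too. The labels do not say which isoform an id denotes, what drives Cas13d, or whether a library is 1 clone. There was 1 library per side and no replicate, so no difference below was tested between conditions, and intervals cover counting error only. The question was how far libraries aimed at different isoforms of the same gene differ, first in RBFOX2 itself and then in the levels and isoforms of other genes.

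RBFOX2 encodes an RNA-binding protein that recognises the motif GCATG in introns and promotes or blocks the use of a nearby exon, depending on the side of the exon it binds. Its own transcript is alternatively spliced and starts at several first exons, so that 1 gene yields many proteins. In human embryonic stem cells RBFOX2 is the main family member and is known to regulate exons of cytoskeletal and signalling genes.

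The splice site at issue lies in the coding sequence of RBFOX2 on the minus strand of chromosome 22 (GRCh38, GENCODE 29). Exon 9 of 13 starts at either of a pair of sites. The long exon (chr22:35759888-35760032) is that of ENST00000449924.6 and the short exon (chr22:35759888-35760020) that of ENST00000416721.6, and the 12 nt between the sites (chr22:35760021-35760032) keep the reading frame. The first sequence is the longer exon with those 12 nt in capitals. The next 2 show what tells the forms apart in a read, the last 30 nt of the exon before in lower case joined to the first 30 nt of the variable exon in capitals.
Long exon: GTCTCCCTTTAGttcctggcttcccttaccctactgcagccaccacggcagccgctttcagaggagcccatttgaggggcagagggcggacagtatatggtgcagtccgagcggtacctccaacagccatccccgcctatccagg
Long-exon junction: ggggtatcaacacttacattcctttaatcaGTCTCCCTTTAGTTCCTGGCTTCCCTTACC
Short-exon junction: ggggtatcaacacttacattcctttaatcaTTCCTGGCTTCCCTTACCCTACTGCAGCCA
The 12 nt end in AG, the letters that close an intron.

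The total of RBFOX2 differed little between the libraries. It was 82.9 TPM in G11 (1726 reads) and 88.5 TPM in G12 (2360 reads), while the control held 107 TPM, and the other 4 G libraries ranged from 42.1 to 106 TPM. TPM here is the read count scaled by the library's total reads alone, with no term for length. In bulk RNA fewer cells expressing a gene and less RNA per cell cannot be told apart. The ratio of G11 to G12 was 0.937 (95% interval 0.880 to 0.997), and 54.5% of all genes compared lay closer to the median ratio of genes than RBFOX2 did. The other family members were nearly undetected, RBFOX1 with 2 reads in G11 and 4 in G12 and RBFOX3 with 0 and 2, where 3 reads are the limit that a count of 0 allows (0.144 TPM in G11 and 0.112 TPM in G12).

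Behind this similar total, the isoforms of RBFOX2 took opposite places. Of 106 listed isoforms, 8 held at least 2% of RBFOX2 reads in G11 or G12, together 90.03% in G11, 88.2% in G12 and 80.5% in the control. All 8 differed at least 2-fold between the libraries, 4 being higher in G11 and 4 lower, and 6 did so with the median ratio of all genes set to 0. Isoforms listed under a hash in place of a reference ID are called hashed isoforms here and are numbered by mean share.

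ENST00000416721.6, which carries the short exon and starts at the proximal first exon, was at 38.55 TPM in G11, 15.6 TPM in G12 and 28.1 TPM in the control. It held 46.5% of RBFOX2 reads in G11 (Wilson 95% interval 44.2 to 48.9) and 17.6% in G12 (16.1 to 19.2), and the ratio of G11 to G12 was 2.48 (2.20 to 2.80). ENST00000449924.6, with the long exon and the same first exon, was at 1.78 TPM in G11, 24.9 TPM in G12 and 13.99 TPM in the control. Its share was 2.14% in G11 (1.56 to 2.94) and 28.1% in G12 (26.4 to 29.98), so it was 14.01-fold higher in G12 (10.1 to 20.1). ENST00000416721.6 led in G11 and was second to ENST00000449924.6 in G12, and the control lay between the libraries for both. The pair also differs at the 3′ end, which the table places at 35743911 for ENST00000416721.6 and at 35738737 for ENST00000449924.6, so the variable exon is not their only difference.

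Hashed isoforms 1 and 2 start at the proximal first exon and share the first part of their hashed ID, whose meaning is not given in the sources used here. Hashed isoforms 7 (23 and 16 reads in G11 and G12) and 17 (3 and 17 reads) share it too. The 3′ ends of hashed isoforms 1 and 2 also differ, at 35743138 and 35742418. Hashed isoform 1 had 457 reads in G11 and 279 in G12, a ratio of 2.10 (1.80 to 2.44). Hashed isoform 2 had 12 reads in G11 and 366 in G12 and was 23.8-fold higher in G12 (13.5 to 46.5). The control held 15.5 TPM of the former and 7.14 TPM of the latter, again between the G libraries in each case.

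The isoforms that start at the distal first exon showed the same split. Hashed isoforms 3 and 4 also share the first part of their ID and differ at the 3′ end, at 35743911 and 35743599. Hashed isoform 3 was 2.75-fold higher in G11 (2.08 to 3.67; 161 and 75 reads), and hashed isoform 4 was 18.4-fold higher in G12 (8.74 to 46.5; 7 and 165 reads). ENST00000695854.1 was 2.00-fold higher in G11 (1.37 to 2.94; 75 and 48 reads). For these distal isoforms higher in G11 the control, at 9.28 TPM and 5.06 TPM, lay above both libraries. ENST00000438146.7, which carries the long exon, had 2 reads in G11, below 3 reads, and 69 in G12, a ratio of G12 to G11 of 26.9 with a wide counting interval (7.18 to 227). The isoforms higher in G11 exceeded G12 by 2.00 to 2.75 times, whereas those higher in G12 exceeded G11 by 14.01 to 26.9 times.

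**Figure D1:**
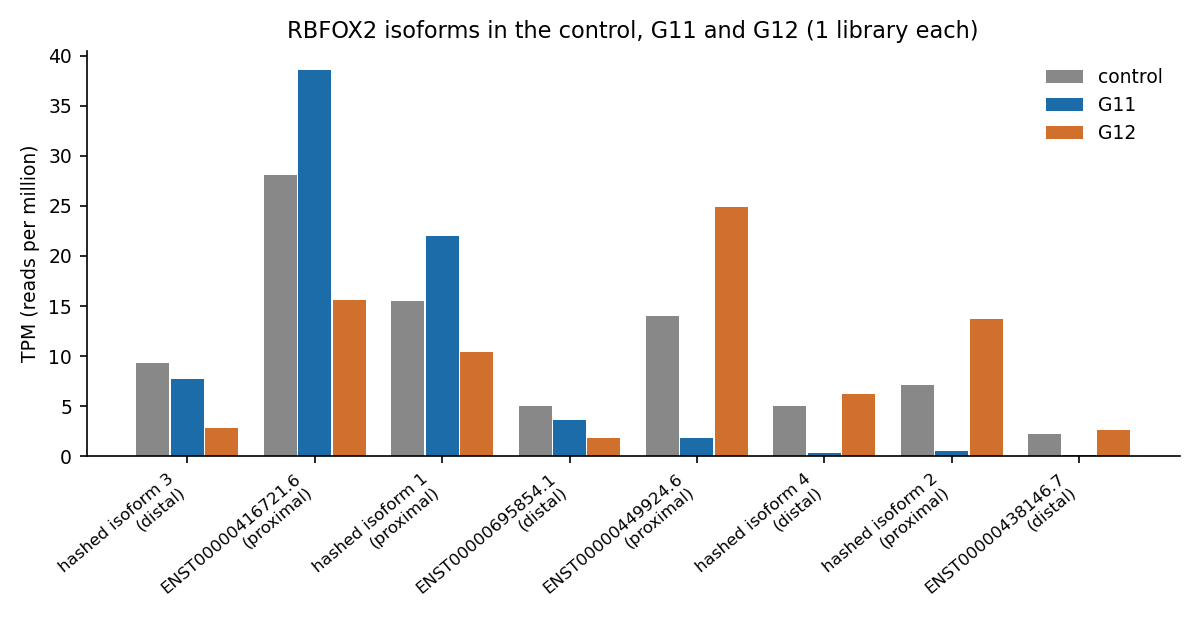
Bars give TPM of the 8 RBFOX2 isoforms with at least 2% of the gene's reads in G11 or G12, in the control, G11 and G12 (1 library each, no error bars), ordered by the ratio of G11 to G12, with the first exon in brackets. The 4 isoforms on the left are at least 2-fold higher in G11 and the 4 on the right at least 14-fold higher in G12, and both sets hold proximal and distal first exons.

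Use of the first exon differed less. Isoforms starting at the proximal first exon summed to 68.2 TPM in G11 and 71.4 TPM in G12, a ratio of 0.955 (0.891 to 1.02). Those starting at the distal one summed to 12.7 TPM in G11 and 14.8 TPM in G12, a ratio of 0.861 (0.734 to 1.01). Both intervals include 1, and the distal sum of the control was higher, at 25.2 TPM. The remaining 98 isoforms held 172 reads in G11 and 279 in G12, none with more than 29 reads in either. Of these, 54 had no read in G11 or G12, and among the rest 9 had an interval entirely below 1 and 2 one entirely above.

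Of the 106 isoforms, 6 have exons in GENCODE 29 that assign them to a form, 3 to each. They held 866 of 1726 RBFOX2 reads in G11, 1183 of 2360 in G12 and 803 of 1802 in the control. The form of the remaining reads was not assigned. The short-exon isoforms summed to 39.7 TPM in G11, 16.0 TPM in G12 and 30.2 TPM in the control, so G11 was at 131% of the control (117 to 147) and G12 at 52.9% (46.4 to 60.3). The long-exon isoforms summed to 1.92 TPM in G11, 28.3 TPM in G12 and 17.6 TPM in the control, so G11 was at 10.9% (7.66 to 15.3) and G12 at 161% (141 to 185). Among these annotated isoforms, each library was low in 1 form and above the control in the other. The short-exon form was 2.48-fold higher in G11 (2.20 to 2.79) and the long-exon form 14.8-fold higher in G12 (10.7 to 20.8). The form that was low was at 16.0 TPM in G12 and at 1.92 TPM in G11. Since the pair was proposed with these shares known, they are given as a description.

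**Figure D2:**
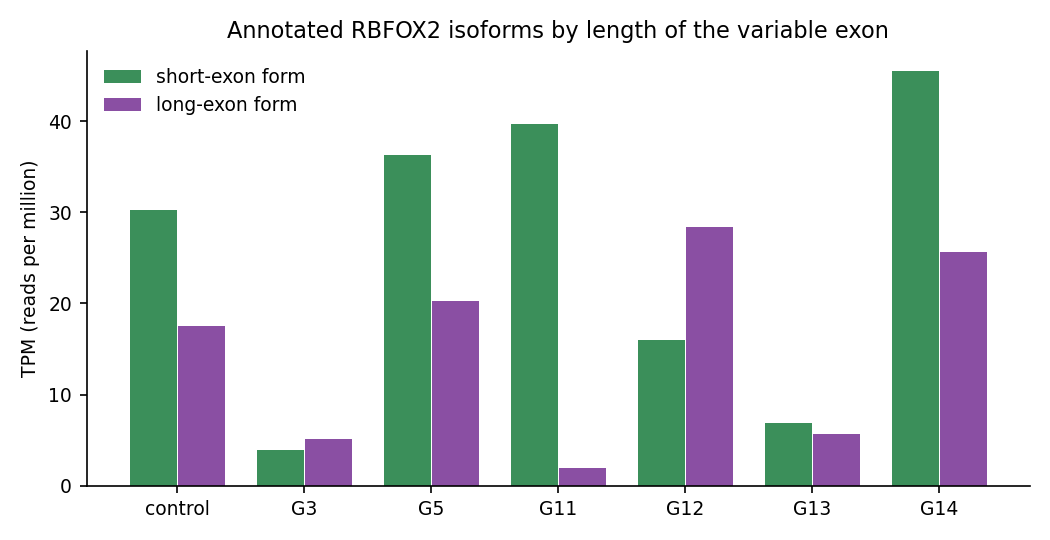
Bars give the summed TPM of the annotated RBFOX2 isoforms with the short exon (3 isoforms) and with the long exon (3 isoforms) in each of the 7 libraries, 1 library per bar with no error bars. Among these isoforms G11 has almost no long-exon form, at 1.92 TPM. G12 is the G library in which the long-exon form exceeds the short-exon form by the most, 28.3 against 16.0 TPM. Together these isoforms hold 866 of 1726 RBFOX2 reads in G11, 1183 of 2360 in G12 and 285 of 1275 in G13.

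Isoform shares were then compared in every gene with at least 200 reads in both libraries. In 1 of 6463 genes (0.0155%) did any isoform share differ by at least 20 percentage points, and that gene was RBFOX2, with 28.9 points for ENST00000416721.6 (26.1 to 31.7, Newcombe interval) and -26.0 points for ENST00000449924.6 (-27.9 to -24.0). The usage distance, which runs from 0 (identical isoform shares in both libraries) to 1 (no isoform in common), was 0.568 for RBFOX2, also the largest of the 6463. The next was 0.419 for TRMT2B, with 288 and 304 reads, and the median gene was at 0.0371. RBFOX2 also had the largest distance in the pairs G3 and G5 (0.662) and G13 and G14 (0.737), which share no library with this one. In those pairs 26 of 6665 genes and 21 of 6075 genes reached 20 points.

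At 10 points, 143 genes (2.21%) differed between G11 and G12. After RBFOX2 the largest differences were 19.4 points for VIM, the intermediate filament vimentin, and 19.4 points for MAT2A, an enzyme that makes S-adenosylmethionine. The reference isoform of VIM (ENST00000224237.9, chromosome 10, 17229267 to 17237596) held 53.3% of VIM reads in G11 and 33.9% in G12, with 49.1% in the control. That of MAT2A (ENST00000306434.8) held 46.8% in G11 and 27.4% in G12, with 45.6% in the control. By counting error the difference lay within 15.6 to 23.2 points for VIM and 13.1 to 25.5 points for MAT2A. Both isoforms were picked for the size of their difference, which these intervals do not allow for.

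WDR33, a subunit of the machinery that recognises the poly(A) signal, has a short isoform with an early 3′ end and a long isoform that share a 5′ end (chromosome 2, 127811180). The short one (ENST00000409658.7, 3104 nt) held 56.8% of reads in G11 and 74.6% in G12, and the long one (ENST00000322313.9, 9471 nt) 32.9% and 19.5%. Over all 7 libraries the short isoform ranged from 40.5% in G3 to 80.7% in G13, with the control at 57.4%. TSC22D4, a leucine zipper protein of the TSC22 family, held 58.5% of its 2383-nt isoform in G11 and 41.5% in G12, and 21.0% and 33.7% of its 1469-nt isoform. In both genes the shorter isoform was the one with the larger share in G12.

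The other 5 genes named by size of difference were USP45 (a deubiquitinase), ZSWIM1, ODF2L, CRCP (a subunit of RNA polymerase III) and TAF8 (a subunit of the general transcription factor TFIID). Their largest difference was -18.1 points in USP45, -17.1 in ZSWIM1, -16.5 in ODF2L, -16.0 in CRCP and -16.0 in TAF8, each for an isoform with the larger share in G12. In TAF8 that isoform is 794 nt long (ENST00000372978.7), with a share of 38.8% in G12, 38.3% in G13 and 33.0% in the control, against 22.8% in G11 and 19.6% to 23.9% in G3, G5 and G14. Among the 143 genes, 47 had a length in GENCODE 29 both for the isoform with the largest excess in G11 and for the one with the largest excess in G12. The former was the longer in 34 and the shorter in 13, with medians of 2768 and 1604 nt. In RBFOX2 the isoform higher in G11 was the shorter, 1254 against 1935 nt in GENCODE 29.

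**Figure D3:**
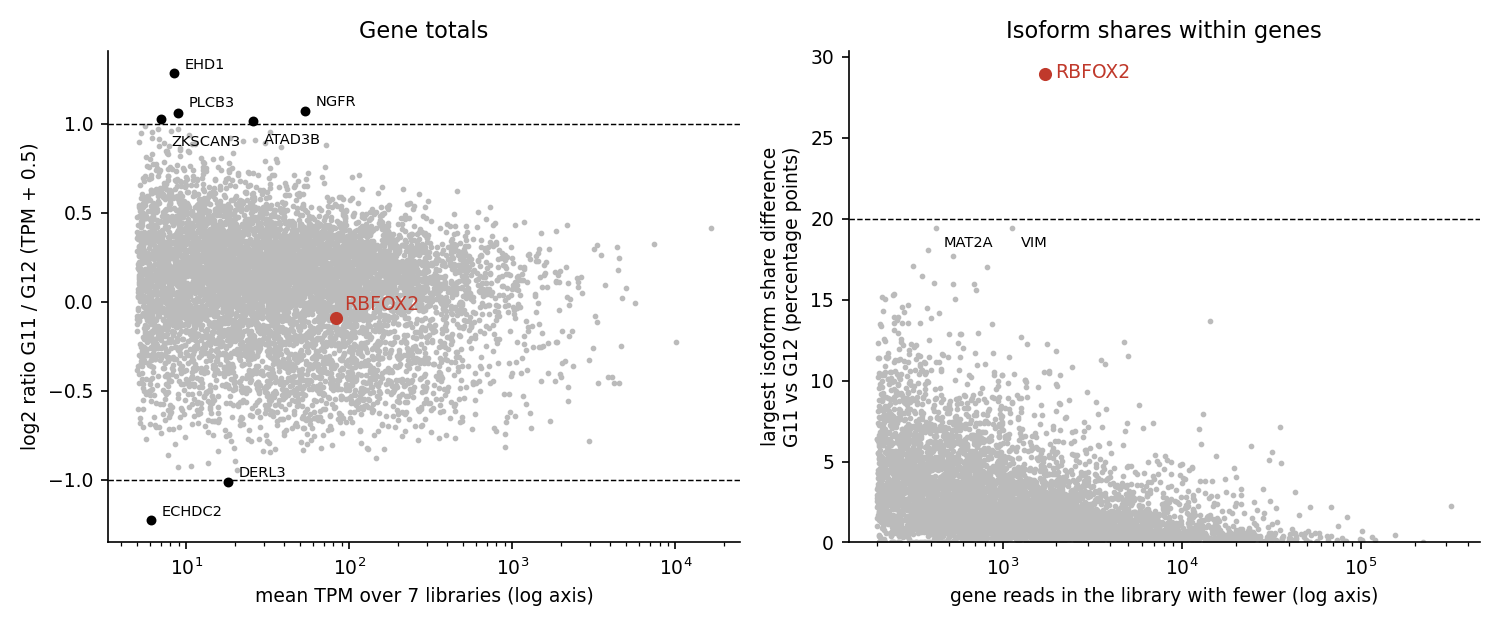
Left: each point is 1 of 7878 genes, by mean TPM over the 7 libraries (log axis) and log2 ratio of G11 to G12 on the TPM + 0.5 scale; dashed lines mark 2-fold and black points the 7 genes past it. Right: each point is 1 of 6463 genes, by reads in the library with fewer (log axis) and the largest difference of an isoform share in percentage points; RBFOX2, in red, lies within the cloud of gene totals on the left and alone above 20 points on the right.

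Known RBFOX-regulated genes were examined by the same measures. The list was written from general knowledge and holds 14 genes, of which 9 had enough reads for shares. None reached 10 or 5 points, where 15.6% of all genes reached 5. The largest difference was -4.63 points in PICALM (-10.7 to 1.44), a clathrin assembly protein, and -4.55 points in EPB41 (-9.14 to 0.187), the membrane skeleton protein 4.1R. It was -2.34 points in ECT2, which acts in cell division (-4.95 to 0.306), -1.10 in the kinase MAP3K7 (-2.72 to 0.539) and -1.30 in the myosin heavy chain MYH10 (-2.85 to 0.263), all with intervals that include 0. NUMB, a Notch pathway regulator, differed by -2.20 points (-4.09 to -0.297). EPB41L2 differed by -1.46 (-2.35 to -0.573), EWSR1 by -0.736 (-1.32 to -0.147) and the ATP synthase subunit ATP5F1C by -0.295 (-0.461 to -0.120). In each gene the isoform was picked for the largest difference, among 36 isoforms with a read in PICALM and up to 165 in EWSR1. The intervals make no allowance for this choice, so one that leaves out 0 is no test of a difference.

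The median of these largest differences was 1.46 points for the 9 genes and 1.96 points for all genes, while the median usage distance was 0.0491 for the 9 and 0.0371 for all, with 7 of the 9 above the latter. The 2 medians thus lay on opposite sides of those of all genes. PICALM and EPB41 had distances of 0.162 and 0.197, exceeded by 3.30% and 1.22% of genes. The distance adds up differences over all isoforms, so counting error raises it where reads are few and isoforms many. PICALM had 311 and 309 reads over 36 isoforms with a read, and EPB41 452 and 584 over 90. The ranking among all genes made no allowance for this. CLSTN1 and ENAH had fewer than 200 reads, FGFR2 had 8 and 11, MBNL1 1 and 0, and FMNL3 was not listed. With an alternative exon of few nucleotides, shares of whole isoforms also depend on how the authors' software told isoforms apart.

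Gene totals of G11 and G12 were close, and the pair was already known to be the closest pair when the comparison was planned. Of 7878 genes with a mean of at least 5 TPM over the 7 libraries, 7 were at least 2-fold apart (0.0889%), 5 higher in G11 (0.0635%) and 2 lower (0.0254%). The same count was 195 for G3 and G5 and 322 for G13 and G14. The SD of log2 ratios across genes was 0.31 in this pair, against 0.41 and 0.51 in those. The median log2 ratio of all genes was 0.11, so values near 0.11 mark a gene that did as the median gene. Setting this median to 0 turned the split of the 2-fold genes to 1 higher and 7 lower.

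The genes at least 2-fold higher in G11 were EHD1 (endocytic recycling), NGFR (the p75 neurotrophin receptor), PLCB3 (a phospholipase C), ZKSCAN3 (a zinc finger repressor) and ATAD3B (a mitochondrial ATPase). NGFR was at 25.7 TPM in G11 and 11.95 TPM in G12 (535 and 319 reads), a ratio of 2.15 (1.87 to 2.48). NGFR was at 85.2 TPM in the control, 159 TPM in G3 and 84.45 TPM in G5, and at 4.84 and 5.89 TPM in G13 and G14, so both G11 and G12 lay far below the control. EHD1 was at 7.30 TPM in G11 and 2.70 in G12 (152 and 72 reads) and PLCB3 at 4.61 and 1.95 (96 and 52 reads). ZKSCAN3 was at 9.42 and 4.37 TPM and ATAD3B at 24.5 and 11.8. ATAD3B has near-identical neighbouring copies, so its reads may be split in a way not known here. The genes at least 2-fold lower in G11 were DERL3, which acts in degradation of endoplasmic reticulum proteins, at 12.2 and 25.03 TPM, and ECHDC2, a mitochondrial hydratase, at 3.77 and 9.50 TPM.

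Among the 6615 genes with a mean of at least 10 TPM and 50 reads, the 10 highest in G11 had log2 ratios between 0.89 and 1.07. After NGFR and ATAD3B these were ALDH16A1, the deubiquitinase USP46, the RNA decay factor ZFP36L2, the mRNA export receptor NXF1, the kinases MAP2K7 and AKT2, the lysosomal transcription factor TFE3 and the actin ACTA1. AKT2 was at 7.49 TPM in G11 and 3.81 in G12, against 49.9 TPM in the control. G3 and G5 held 104 and 42.85 TPM of it, and G13 and G14 1.46 and 3.85 TPM. NXF1 was at 26.9 TPM in G11 and 14.1 in G12 and between 14.5 and 38.3 TPM elsewhere. ACTA1, at 15.9 and 8.40 TPM, was the member of this set that was higher in G11 than in the control (13.6 TPM). The other 9 were lower in G11 than in the control, and lower still in G12.

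The 10 lowest in G11 had log2 ratios between -1.01 and -0.83. Those reported here were DERL3, UQCC4 (assembly of respiratory complex III), POLR3GL (RNA polymerase III), MRNIP (DNA repair), MTX1 (mitochondrial outer membrane), CUEDC2, RARRES2 (the secreted protein chemerin), RDM1 and CALCB (calcitonin gene-related peptide). MTX1 was at 116 TPM in G11 and 214 TPM in G12 (2414 and 5698 reads), a ratio of 0.543 (0.517 to 0.569). The control, at 192 TPM, and G13, at 214 TPM, resembled G12, whereas G3, G5 and G14 held 94.5, 82.75 and 116 TPM of MTX1. UQCC4 showed a like split. It was at 32.6 TPM in the control, 29.3 TPM in G12 and 28.95 TPM in G13, whereas G3, G5, G11 and G14 held 10.98 to 14.99 TPM.

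**Figure D4:**
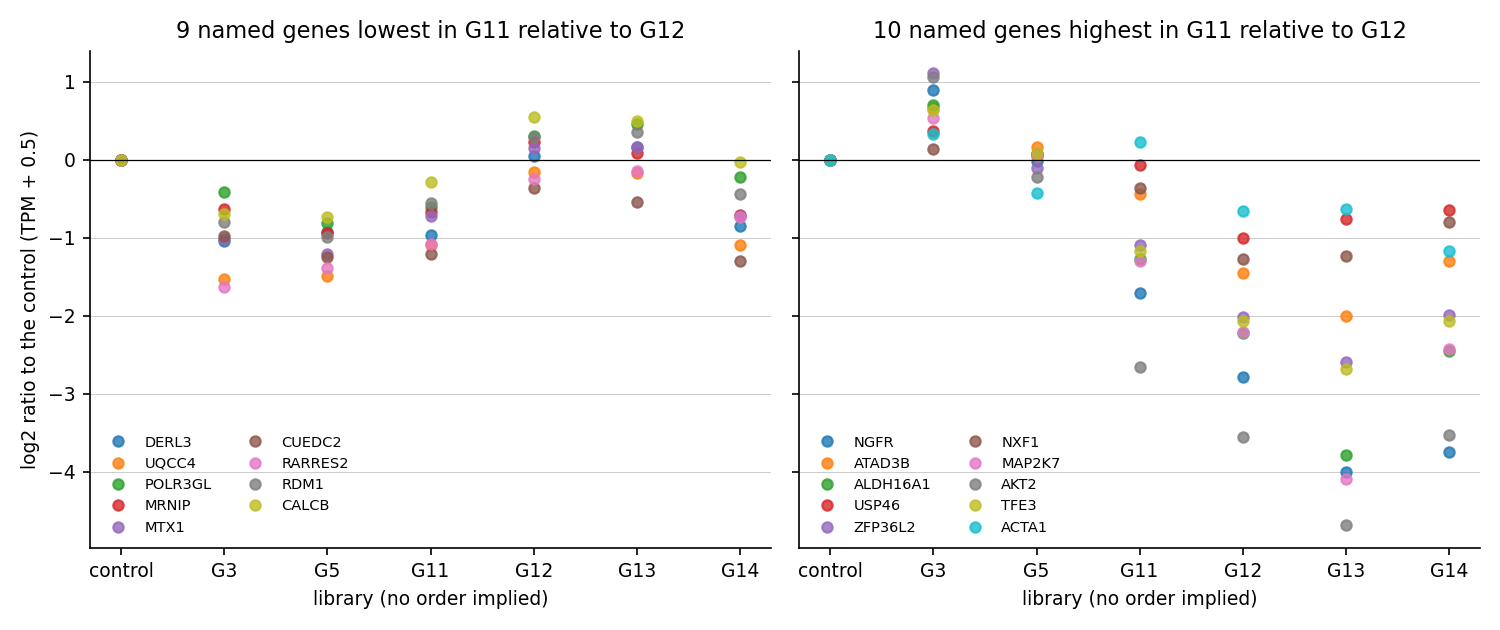
Each point is the log2 ratio of a gene to the control on the TPM + 0.5 scale, for 9 of the genes lowest (left) and the 10 highest (right) in G11 relative to G12, in each of the 7 libraries. On the left G12 and G13 lie near the control and above G3, G5, G11 and G14; on the right G3 is the highest and G13 or G14 the lowest for most genes, such as NGFR with 159 TPM in G3 and 4.84 TPM in G13.

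At 1.5-fold, 489 genes (6.21%) were apart, 243 higher in G11 (3.08%) and 246 lower (3.12%). With the median ratio set to 0 these were 100 higher and 526 lower. The 246 lower genes had a median transcript length of 1146 nt against 2604 nt over all genes, and 200 of the 240 with a length belonged to the shortest of 5 equal bins of genes. Their median log2 ratio to the control was -0.91 in G11 and -0.23 in G12, and also -0.95 in G3, -1.18 in G5 and -1.06 in G14 but -0.27 in G13. In 205 of the 246 (83.3%) the control, G12 and G13 all lay above G3, G5, G11 and G14, against 982 of all 7878 genes (12.5%). This grouping was chosen after the values were seen, and G12 above G11 is part of how the genes were selected. In the pair G13 and G14, which shares no library with this one, the median log2 ratio of G13 to G14 was 0.76 for these genes and -0.21 for all.

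The 243 genes higher in G11 were longer and at a lower level. Their median GC content was 58.0%, against 53.6% in the 246 lower genes and 47.9% over all genes. Their median length was 3367 nt and their median level 11.7 TPM, against 37.8 TPM over all genes. Relative to the control, the median log2 ratio of G11 was -0.46 and that of G12 -1.13. The corresponding values were 0.47 for G3, 0.09 for G5, -1.51 for G13 and -1.04 for G14. Both G11 and G12 were below the control in 186 of them, in 181 of the 246 lower genes and in 3828 of all 7878 genes. In 221 of 243 (90.9%) G3, G5 and G11 all lay above G12, G13 and G14, against 2160 of all 7878 genes (27.4%). This grouping was also chosen after the values were seen, and G11 above G12 was fixed by the selection.

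Over all genes the ratio of G11 to G12 varied with transcript length. The median log2 ratio was -0.30 in the shortest bin (207 to 1615 nt) and between 0.13 and 0.20 in the other 4. It was nearly flat over bins of GC content, from 0.11 to 0.13, but the genes in the highest bin spread more, with quartiles of -0.24 and 0.38. A quadratic surface of length and GC content accounted for 32.4% of the variance of log2 ratios across the 7737 genes with both values. Such a surface accounted for 22.8% in the pair G3 and G5 and for 41.9% in the pair G13 and G14. These relations hold across genes, which are no independent replicates, and the part of length and GC content in single genes was not tested. With the surface removed, 217 genes were at least 1.5-fold apart, 76 higher and 141 lower. MTX1 kept a log2 ratio of -0.88 while that of NGFR was 0.71. Among the other genes named above as 2-fold apart, ECHDC2 stayed past 2-fold, at -1.04. EHD1 was at 0.86, PLCB3 at 0.65, ZKSCAN3 at 0.84 and DERL3 at -0.70, all under 2-fold, and ATAD3B had no value.

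**Figure D5:**
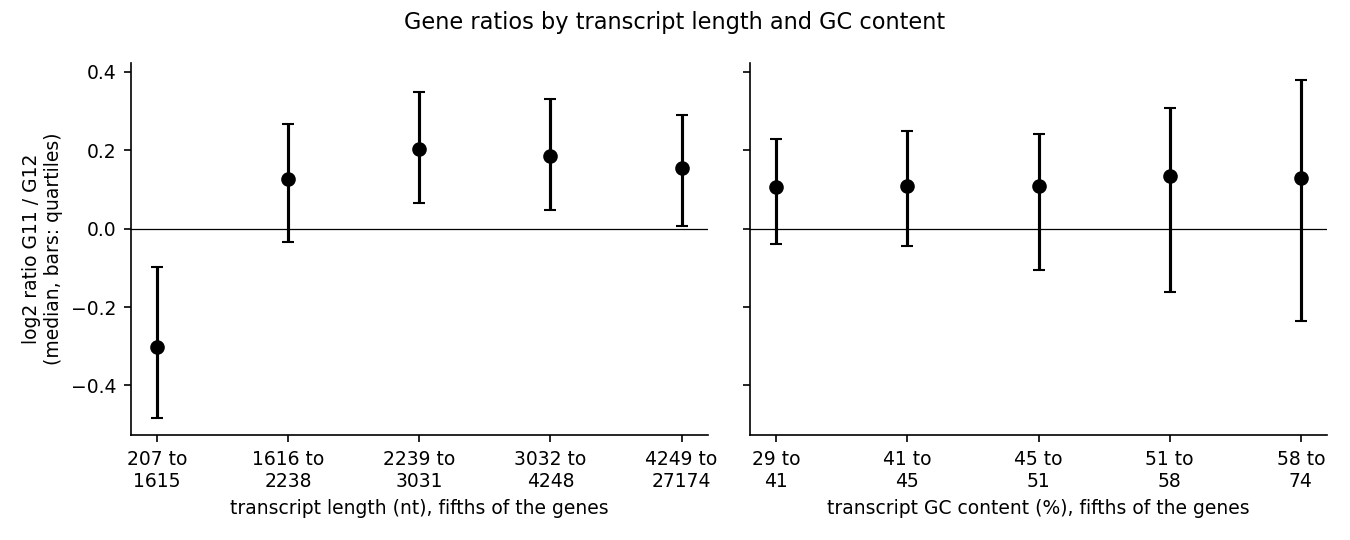
Points are the median log2 ratio of G11 to G12 (TPM + 0.5) of genes in 5 equal bins of transcript length (left, nt) and of GC content (right, %), with bars from the lower to the upper quartile of genes. The shortest bin lies at -0.30 and the other lengths between 0.13 and 0.20, whereas the medians over GC content stay between 0.11 and 0.13.

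Gene groups were read against these backgrounds and against the 3.08% of all genes that were at least 1.5-fold higher and the 3.12% that were lower. Of 68 cytosolic ribosomal protein genes, 0 were at least 1.5-fold apart, with a median log2 ratio of -0.21 and 59 below the median of all genes. Their median length was 979 nt, and with the length and GC surface removed the median was 0.07, on the other side of 0, with 4 genes higher and 2 lower at 1.5-fold. Of 71 nuclear genes for the respiratory chain, 8 were lower (11.3%, against 3.12% of all genes) and 0 higher at 1.5-fold, with a median of -0.22. With the surface removed the median was -0.01, and 0 were lower and 3 higher. NDUFA12, a complex I subunit with a transcript of 632 nt, was at 49.2 TPM in G11 and 85.9 TPM in G12. ATP5F1A, the alpha subunit of ATP synthase, was at 1340 TPM in G11 and 981 TPM in G12 (log2 ratio 0.45). No mitochondrially encoded gene of the list appeared under a gene ID.

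The pluripotency list had 10 of 12 genes compared, 2 of them at least 1.5-fold higher in G11 (against 3.08% of all genes) and 0 lower, with a median log2 ratio of 0.35 and 8 above the median of all genes. L1TD1, an RNA-binding protein of pluripotent cells, was at 41.0 TPM in G11 and 24.9 TPM in G12 (18.2 TPM in the control), and the surface protein PODXL at 33.9 and 22.3 TPM. LIN28A, which blocks let-7 maturation, was at 138 and 97.4 TPM, and POU5F1, a core factor with near-identical pseudogenes, at 505 and 547 TPM (log2 ratio -0.12). With the surface removed the median of the list was 0.17 and 0 genes were past 1.5-fold, L1TD1 being at 0.58 and PODXL at 0.49 on the log2 scale. Markers of other cell types were mostly low: those of mesoderm summed to 0.74 TPM in each library, of endoderm to 0.76 and 0.38, and of trophectoderm to 1.63 and 0.93 TPM in G11 and G12. Among the markers that define these, 4 of 7, 5 of 7 and 4 of 6 were not listed or at 0 in both libraries. Fibroblast markers summed to 14.4 and 9.41 TPM, from collagens with COL1A2 at 7.62 and 4.64 TPM. Of these markers 4 of 6 were not listed or at 0. Of the 2 compared, COL1A2 was past 1.5-fold (against 3.08% of all genes higher). Its log2 ratio was 0.66, and 0.32 with the surface removed. OTX2, also expressed by pluripotent cells, made up 140 of 143 TPM of the neural list in G11 and 101 of 103 TPM in G12. Its log2 ratio was 0.48, and 0.77, past 1.5-fold, with the surface removed. Of the neural list 5 of 7 were not listed or at 0. SOX2 of the pluripotency list and MKI67 and CENPE of the mitosis list were not listed either. A missing entry therefore does not by itself show that a gene was not expressed. The part of these other cell types in the results was not tested.

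Splicing regulators were mostly a little higher in G11. Of 40 compared, 3 were at least 1.5-fold higher (7.50%, against 3.08% of all genes) and 1 lower (2.50%, against 3.12%), the median log2 ratio was 0.22, and 31 lay above the median of all genes. The epithelial regulator ESRP2 was at 10.9 TPM in G11 and 6.72 TPM in G12, KHDRBS1 at 18.2 and 11.6 TPM, and SF1, which binds the branch point, at 122 and 78.7 TPM. SRSF9, an SR protein with a 1201-nt transcript, was lower, at 283 and 434 TPM (log2 ratio -0.62). With the length and GC surface removed none of these 4 was past 1.5-fold, the log2 ratios being 0.32 for ESRP2, 0.52 for KHDRBS1, 0.39 for SF1 and -0.42 for SRSF9, and the median of the list was 0.18. HNRNPM and DDX5, which act with RBFOX proteins in a large assembly, had log2 ratios of 0.43 and 0.53, and HNRNPC, HNRNPH1 and MATR3 of the same assembly 0.12, 0.40 and 0.09, of which MATR3 was below 0 with the median set to 0 (-0.03) or the surface removed (-0.05). Of 10 nonsense-mediated decay factors 2 were higher, SMG5 (24.9 and 15.01 TPM) and SMG8 (16.5 and 10.45 TPM), and 0 lower (3.08% and 3.12% of all genes), with a median of 0.22 and MAGOH lowest at -0.19. With the surface removed 0 were past 1.5-fold, with SMG5 at 0.35, SMG8 at 0.48 and MAGOH at 0.17.

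Few members of the remaining lists were past 1.5-fold. RBFOX targets had a median log2 ratio of 0.11 over 11 genes, below 0 (-0.01) once the median of all genes was set to 0 or the surface was removed. CLSTN1, a membrane protein of vesicle transport, was the member past 1.5-fold, at 4.99 TPM in G11 and 3.07 TPM in G12 against 18.8 TPM in the control, and ATP5F1C was lowest, at -0.46. CLSTN1 was at 0.26, under 1.5-fold, with the surface removed. Of 7 p53 targets 0 were past 1.5-fold (median -0.18, which is -0.29 relative to all genes, with 5 of 7 below their median), from BAX at -0.36 to RRM2B at 0.19. BAX was at 0.03 and the median of the list at -0.19 with the surface removed. Of 6 interferon and RNA sensing genes ISG15 was lower, at 3.74 and 6.75 TPM with a 637-nt transcript, and its log2 ratio of -0.77 was -0.09 with the surface removed. ADAR was highest, at 0.32, and the median of -0.01 was above 0 without the filter on low values or with a mean of at least 20 TPM. None of 13 chaperones (median 0.20, from HSPE1 at -0.46 to HSPA8 at 0.39) was past 1.5-fold. None of 17 mitosis genes was either, with a median of 0.09 (-0.03 relative to all genes), from AURKB at -0.24 to KIF23 at 0.30. Of 230 ZNF genes 12 were higher and 0 lower (median 0.20), from ZNF706 at -0.52 to ZNF696 at 0.82, and with the surface removed 2 were higher and 1 lower. Over all lists but the cell type markers, 20 of 482 genes were at least 1.5-fold higher (4.15%, against 3.08% of all genes). Of the same 482 genes 10 were lower (2.07%, against 3.12%). With the surface removed 9 were higher and 3 lower.

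Depth was 20831859 reads in G11 and 26678538 in G12, and it ranged from 16801842 reads in the control to the depth of G12. The table lists isoforms with at least 1 read in the control, so an isoform made only in G11 or G12 would not be seen. Listed isoforms held 98.3% of the reads of G11 and 98.6% of those of G12.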

How the data were processed

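Polyadenylated RNA of 7 HUES66 samples was sequenced as cDNA joined into 8-fold arrays (MAS-Seq, Revio) and split into single-molecule reads, per the labels' protocols. Minimap2 2.17 and GRCh38 are named in the submitters' processing notes. The isoform caller, its filters and the annotation are not given in the sources used here. The authors' deposited table holds counts of full-length reads and TPM per isoform. The deposited TPM equals the count divided by 1 constant per library within 0.0050, and these constants gave the library totals. Missing values were set to 0.

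The isoforms of each Ensembl gene stem were added up, which gave 14294 genes, 14287 of them with a symbol. Ratios are log2(TPM + 0.5), for genes with a mean of at least 5 TPM. They understate differences of weakly expressed genes. Ratio intervals are exact (Clopper-Pearson), those of shares Wilson or Newcombe, all at 95%. Reads carry no molecular identifiers. Starts are printed with 1 added. GENCODE 29 supplied length and GC content, matched by transcript ID without its version. Named genes were RBFOX2 isoforms with at least 2% of its reads, the 10 highest and 10 lowest ratios, the 10 largest share differences, and the extremes of each list, with all RBFOX targets that had enough reads. The 2-fold genes, the splicing and decay factors between the extremes, the pluripotency genes LIN28A and PODXL, and TRMT2B were named after their values were seen. 1 of the 10 lowest is not reported here. Members and lists were chosen with earlier results of these data known. Calculations used Python 3.11.15, pandas 2.3.3, numpy 2.4.6 and scipy 1.17.1, and were tested on simulated data.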

Additional observations from a re-analysis of the deposited data

Results flagged for a closer look

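G11 and G12 differed from the control in opposite directions in the share of the short-exon form among annotated RBFOX2 isoforms, by 32.1 points in G11 and by -27.2 points in G12. With 1 library each, this difference between the groups was not tested.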

How the results depend on the processing

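Among annotated RBFOX2 isoforms, the share difference of the short-exon form was 59.3 points. It was 57.3 with the proximal first exon only and 59.2 with isoforms of at least 1 TPM. Of the 8 RBFOX2 isoforms, 8 were at least 2-fold apart by shares within RBFOX2. With the median of all genes set to 0 these were 6, and none of the 8 changed direction. RBFOX2 reached 20 points and ranked first in distance under every read minimum and isoform set tried. The count of genes at 20 points was 4 with at least 100 reads or with isoforms of at least 1 TPM, and 143 at 10 points. Genes at 2-fold numbered 17 with a pseudocount of 0.1 TPM or reference isoforms only, 3 with 1 TPM, 45 without a filter and 2 with a mean of at least 20 TPM. At 1.5-fold they numbered 217 with the length and GC trend removed, 1064 without a filter and 254 at 20 TPM. List members past 1.5-fold, cell type markers left out, numbered 12 with the trend removed and 14 at 20 TPM, in place of 30. The RBFOX2 log2 ratio of -0.09 was -0.21 with the median set to 0. The median distance of RBFOX targets was 0.0338 over 8 genes with isoforms of at least 1 TPM, against 0.0160 for all genes. With reference isoforms only it was 0.0191 over 6 targets, against 0.00664 for all genes. For these the cause was not tested. The genes with the highest and lowest ratios kept their direction under all alternatives that gave them a value. Among list genes named, MAGOH and BAX changed sign with the trend removed, and MATR3, ENAH, MYH10 and EWSR1 both so and with the median set to 0. No paired analysis was possible because each group has 1 library. Leaving out a replicate was likewise not possible. Depth limits isoforms near 3 reads.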
